A study of Homo sapiens with 9 samples.

Results

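The ERBB family is a set of receptor tyrosine kinases at the cell surface, and the EGF-like ligands are the peptides that switch them on. The genes followed here are the receptors EGFR, ERBB2 and ERBB3, the ligands TGFA, AREG, EREG, HBEGF, BTC and NRG1, and the intracellular receptor inhibitor ERRFI1. Members were taken by symbol, as every probe set whose platform annotation gives 1 of these 10 symbols. That gave 24 of 22215 probe sets other than controls, for 8 of the 10 genes. AREG and ERRFI1 had 0 probe sets under their symbols in the annotation used here and were not analysed here. Of the 24 probe sets, 6 belong to EGFR, 2 to ERBB2, 2 to ERBB3, 3 to TGFA, 1 to EREG, 3 to HBEGF, 1 to BTC and 6 to NRG1.

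RNA came from MDA-MB231 (MDA-MB-231), an established human breast cancer cell line that lacks the estrogen and progesterone receptors and ERBB2 amplification. Each of 3 lines bore a stably integrated lentiviral hairpin: scramble, a control hairpin without a named target; shco2, Coco hairpin #2; and shco4, Coco hairpin #4. All 3 lines were thus transduced, grew in DMEM with 10% serum and were measured as 3 arrays each, which the labels call biological replicates. Coco, which the gene DAND5 encodes, is secreted and antagonizes BMP and Nodal ligands. No probe set carried the symbol DAND5, so the knockdown itself was not read. Whether a line was 1 clone or a pool is not given in the sources used here. The comparisons ask how these receptors and ligands differ between either Coco hairpin and scramble, and between the hairpins.

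As background, EGF-like ligands are made as membrane-anchored precursors and are released by ADAM proteases. TGFA, AREG, EREG, HBEGF and BTC bind EGFR, and EREG, HBEGF and BTC also bind ERBB4, while NRG1 binds ERBB3 and ERBB4. ERBB2 has no known ligand and acts as the preferred partner of the others, and ERBB3 has little kinase activity of its own. Active receptors signal through adaptors such as GRB2 and SHC1 to RAS, RAF, MEK and ERK, and to PI3K and AKT. Breast cancer lines of the mesenchymal-like kind, to which MDA-MB-231 belongs, are known for EGFR rather than ERBB2 or ERBB3.

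The stretches of 250 bases before the annotated start of EGFR, TGFA, EREG and HBEGF are shown because these genes carry the main contrasts below: EGFR and TGFA were lower together with shco2, EREG was higher, and HBEGF was lower with shco4. They come from RefSeq (GRCh38.p14), in which 8 of the 10 genes had an entry; ERBB3 and NRG1 had none. Each runs 5′ to 3′ on the gene's strand, and capitals mark matches on either strand to 5 motifs. The GC box, a common promoter element, was searched as GGGCGG and the TATA box as TATAAA. The motif of AP-1 was searched as TGANTCA, the CRE of CREB proteins as TGACGTCA and that of TEAD factors as GGAATG.

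EGFR, chr7:55018767-55019016, plus strand: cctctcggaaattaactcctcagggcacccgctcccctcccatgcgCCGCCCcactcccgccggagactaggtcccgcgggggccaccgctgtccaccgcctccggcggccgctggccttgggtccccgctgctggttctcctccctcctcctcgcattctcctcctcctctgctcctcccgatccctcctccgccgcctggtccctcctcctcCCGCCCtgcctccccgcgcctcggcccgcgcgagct
TGFA, chr2:70553827-70554076, minus strand: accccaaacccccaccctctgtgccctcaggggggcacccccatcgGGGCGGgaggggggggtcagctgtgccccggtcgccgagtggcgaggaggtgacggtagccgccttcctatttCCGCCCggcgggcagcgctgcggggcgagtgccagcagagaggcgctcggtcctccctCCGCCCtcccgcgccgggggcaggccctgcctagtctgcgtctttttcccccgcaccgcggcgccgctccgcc
EREG, chr4:74364895-74365144, plus strand: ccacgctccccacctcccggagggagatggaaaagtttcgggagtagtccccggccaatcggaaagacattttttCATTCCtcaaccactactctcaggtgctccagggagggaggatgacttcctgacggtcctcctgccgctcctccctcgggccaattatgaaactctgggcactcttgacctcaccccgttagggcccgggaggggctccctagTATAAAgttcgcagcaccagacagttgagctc
HBEGF, chr5:140346604-140346853, minus strand: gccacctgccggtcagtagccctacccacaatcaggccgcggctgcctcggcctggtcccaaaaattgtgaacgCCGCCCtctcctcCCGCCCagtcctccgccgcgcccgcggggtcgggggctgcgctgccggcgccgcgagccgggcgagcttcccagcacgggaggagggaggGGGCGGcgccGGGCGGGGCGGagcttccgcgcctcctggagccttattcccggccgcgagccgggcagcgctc

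The EGFR, TGFA and HBEGF stretches were rich in G and C (73.6%, 75.6% and 76.4%), against a median of 58% over 35116 promoters. They held 2, 3 and 5 GC boxes, of which 2 in HBEGF share 1 base, and no other motif searched. The EREG stretch, at 58% G and C, held 1 TATA box shortly before its start and 1 TEAD match, and no GC box. Of all promoters, 42.6% held a GC box, 10.7% a TATA box, 6.57% an AP-1 match, 1.65% a CRE and 11.9% a TEAD match. EGFR and TGFA each have a second annotated start in that table. A match is a string of letters and was not tested as a binding site.

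The receptors differed in which hairpin line stood apart: EGFR was lower with shco2 and ERBB3 was lower with shco4. ERBB2 passed with neither in the main fit, but was called lower with both when the replicate number was added to the fit. Values below are linear intensities as the authors scaled them, given as replicates 1, 2 and 3. Differences are on the log2 scale after values under 16 were set to 16, with the standard error and the adjusted p of limma over all probe sets (n = 3 arrays per line). A call means an adjusted p under 0.05. Probe sets whose names end in _s_at can match several transcripts of a gene, and those in _x_at can also bind other transcripts.

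EGFR was read best by 2 probe sets that the annotation ties to the same transcript record. At 201983_s_at the scramble arrays gave 1031, 1114 and 862, the shco2 arrays 495, 537 and 549.9, and the shco4 arrays 799.8, 803 and 858. All shco2 arrays lay below all others, and the shco4 arrays lay just under the lowest scramble array. EGFR fell with shco2 by 0.92 ± 0.10, or 1.89-fold (adjusted p = 0.00164), and differed by -0.28 ± 0.10 with shco4 (adjusted p = 0.0976, 95% interval -0.51 to -0.05). That shco4 difference passed on dropping scramble array 3, the lowest scramble array (-0.39, adjusted p = 0.0165).

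At 201984_s_at the values were 769, 869 and 728 in scramble, 431, 408 and 484 with shco2, and 779.9, 807 and 828 with shco4. Here the shco4 arrays lay within the range of scramble, and the shco2 arrays were again apart. EGFR fell here with shco2 by 0.84 ± 0.08, or 1.79-fold (adjusted p = 0.00142), and the shco4 difference was 0.03 ± 0.08 (adjusted p = 0.941, 95% interval -0.17 to 0.24). Between the hairpins, EGFR was higher with shco4 at both probe sets, by 0.64 ± 0.10 (adjusted p = 0.00317) and 0.87 ± 0.08 (adjusted p = 0.000568). Both shco2 calls and both calls between the hairpins held in all 18 alternatives.

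The other 4 EGFR probe sets were dim and passed in no comparison. 211551_at lay between 38.9 and 57.8 over the 9 arrays, with the lines overlapping (differences of 0.13 and -0.04). The _x_at probe sets varied widely within a line: 210984_x_at ran from 5.83 to 119 in scramble, and 211607_x_at from 5.83 to 92 with shco4. At 210984_x_at replicate 1 was the brightest array of each line. 211550_at was under the floor of 16 on all 9 arrays and could show no change.

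ERBB2, the partner receptor without a ligand, read 803, 686 and 684 in scramble at 216836_s_at. It read 659, 515 and 535 with shco2, and 685, 592 and 575 with shco4. The shco2 arrays lay below the scramble arrays, by a small gap, and shco4 overlapped with both lines. The differences were -0.35 ± 0.12 with shco2 (adjusted p = 0.0973) and -0.23 ± 0.12 with shco4 (adjusted p = 0.27), and neither passed. With the replicate number added to the fit as a block, both differences had a call (adjusted p = 0.00418 with shco2 and 0.0123 with shco4). The shco2 difference also passed among probe sets with a mean log2 of at least 7 (adjusted p = 0.0446). It passed too on dropping shco2 array 1, the brightest of that line (-0.46, adjusted p = 0.0421). The other ERBB2 probe set, 210930_s_at, ran from 24.7 to 78.6, with the lines overlapping and differences of -0.04 and -0.39.

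ERBB3, the receptor for neuregulins with a weak kinase, read 114, 108 and 118 in scramble at 202454_s_at, 105, 95.8 and 109 with shco2, and 62.1, 58.2 and 67.1 with shco4. The shco4 arrays lay well below all others, and shco2 overlapped with scramble. ERBB3 fell with shco4 by 0.86 ± 0.07, or 1.81-fold (adjusted p = 0.000894), and differed by -0.14 ± 0.07 with shco2 (adjusted p = 0.262, 95% interval -0.30 to 0.03). Between the hairpins (shco4 minus shco2) ERBB3 differed by -0.72 ± 0.07 (adjusted p = 0.000568). Both calls held in all 17 alternatives that kept this probe set. The shco2 difference passed only under the replicate block (adjusted p = 0.013). The other one, 215638_at, lay between 8.56 and 25.1, at or near the floor, and passed in no comparison.

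**Figure D1:**
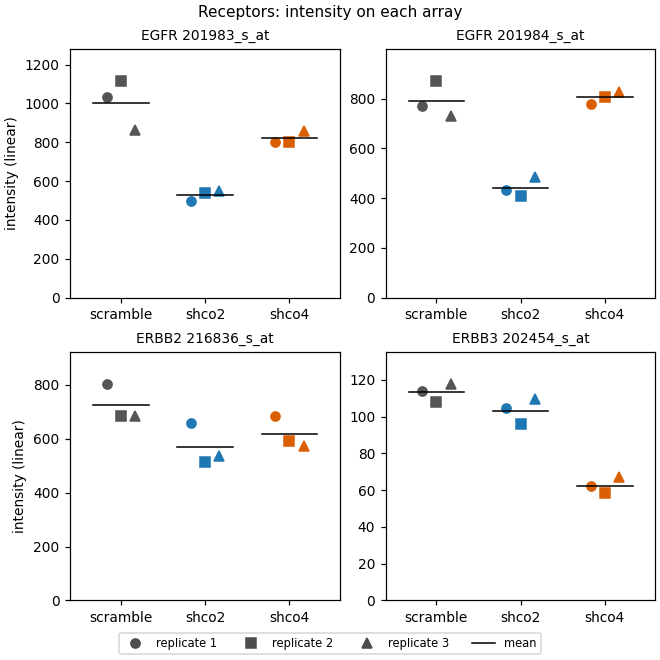
Intensity (linear, from 0) of the 4 receptor probe sets with a mean log2 of at least 6 on each of the 9 arrays, by line, with a bar at the mean of 3 arrays and a symbol per replicate number. EGFR was lowest with shco2 (495 to 549.9 at 201983_s_at) and ERBB3 was lowest with shco4 (58.2 to 67.1 at 202454_s_at).

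Among the ligands of EGFR, TGFA fell with shco2, HBEGF fell with shco4, and EREG was higher on all hairpin arrays and passed with shco2, while its difference with shco4 did not pass. TGFA encodes transforming growth factor alpha, a ligand that many carcinoma lines make for their own EGFR. At 205016_at it read 1266, 1159 and 1287 in scramble, 654, 443 and 550.4 with shco2, and 1181, 1188 and 1174 with shco4. The shco2 arrays were far below the rest, and the shco4 arrays fell inside the scramble range. TGFA fell with shco2 by 1.19 ± 0.13, or 2.28-fold (adjusted p = 0.00195), and differed by -0.07 ± 0.13 with shco4 (adjusted p = 0.877, 95% interval -0.38 to 0.25). From shco2 to shco4 TGFA rose by 1.12 ± 0.13 (adjusted p = 0.00119), and both calls held in all 18 alternatives.

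The other TGFA probe sets had the same sign with shco2 and between the hairpins, with more spread. At 211258_s_at the values were 295, 329.9 and 228 in scramble, 229, 169.9 and 162 with shco2, and 338, 365 and 238 with shco4. The shco2 difference was -0.60 ± 0.23 and did not pass (adjusted p = 0.124). It passed under the replicate block (adjusted p = 0.0435) and among probe sets with a mean log2 of at least 7 (0.0344). The difference between the hairpins was 0.74 ± 0.23 and missed the threshold narrowly (adjusted p = 0.0507). It passed in 8 of 18 alternatives, among them on dropping shco2 array 1 (0.89, adjusted p = 0.0427) and on dropping shco4 array 3 (0.93, adjusted p = 0.026). At 205015_s_at the values were 294, 183 and 88 in scramble, 184, 86.9 and 80.2 with shco2, and 284, 204 and 117 with shco4. There replicate 1 was the brightest array and replicate 3 the dimmest in every line, and the differences of -0.63 and 0.17 were within that spread.

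EREG encodes epiregulin, a ligand of EGFR and ERBB4. Its probe set, 205767_at, read 261, 309 and 393 in scramble, 487, 795 and 531 with shco2, and 456, 571 and 520.3 with shco4. All 6 hairpin arrays lay above all 3 scramble arrays. EREG rose with shco2 by 0.90 ± 0.23, or 1.86-fold (adjusted p = 0.0364). With shco4 it differed by 0.70 ± 0.23, or 1.62-fold, which did not pass (adjusted p = 0.0855). The hairpins differed from each other by -0.20 ± 0.23 (adjusted p = 0.617, 95% interval -0.75 to 0.35).

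The shco2 call of EREG was fragile and did not survive the loss of any 1 of 7 among the 9 arrays. Adjusted p was 0.103 on dropping scramble array 1, 0.0995 on dropping scramble array 2, 0.0703 and 0.0711 on dropping shco2 arrays 2 and 3, and 0.0517, 0.0558 and 0.06 on dropping shco4 arrays 1, 2 and 3. The difference stayed between 0.68 and 1.05 over all alternatives. The shco2 call was also lost with only shco2 and scramble in the fit (adjusted p = 0.0877). With shco4 the difference passed on dropping shco2 array 2 (adjusted p = 0.0474) and among probe sets with a mean log2 of at least 7 (0.0214). Both EREG comparisons rest on the same 3 scramble arrays, so a shift shared by the hairpins cannot be told apart from one of the scramble line.

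HBEGF encodes heparin-binding EGF-like growth factor, which binds EGFR and ERBB4. At 203821_at it read 1237, 1354 and 1298 in scramble, 1068, 1129 and 1037 with shco2, and 757, 941 and 1047 with shco4. Both hairpin lines lay below scramble, and they overlapped with each other. At 38037_at the values were 607, 697 and 674 in scramble, 555, 586 and 612 with shco2, and 441, 459.6 and 443 with shco4. Here the shco4 arrays stood apart from both other lines.

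HBEGF fell with shco4 by 0.51 ± 0.12 at the first probe set (adjusted p = 0.0256) and by 0.56 ± 0.06, or 1.47-fold, at the second (adjusted p = 0.00196). With shco2 the differences were -0.27 ± 0.12 (adjusted p = 0.177) and -0.17 ± 0.06 (adjusted p = 0.0918). Between the hairpins (shco4 minus shco2) the second probe set differed by -0.38 ± 0.06 (adjusted p = 0.00344), and the first, at -0.25 ± 0.12, did not pass (adjusted p = 0.17). The shco4 call at 38037_at held in all 18 alternatives. That at 203821_at ended on dropping scramble array 1 (adjusted p = 0.0579), 2 (0.0839) or 3 (0.0692), or shco4 array 2 (0.0561). It was also lost with only shco4 and scramble in the fit (0.0819). With shco2, 203821_at passed on dropping shco4 array 1 (adjusted p = 0.0294) and with only shco2 and scramble in the fit (0.0291). The shco2 difference at 38037_at passed on dropping scramble array 1 (adjusted p = 0.0265) and under the replicate block (0.0453). The third probe set, 222076_at, was under the floor on all 9 arrays.

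BTC encodes betacellulin, another ligand of EGFR and ERBB4. Its probe set 207326_at lay between 8.51 and 24.7, with 4 of 9 arrays at the floor. The differences of 0.33 with shco2 and 0.10 with shco4 did not pass. On dropping shco2 array 3 the shco2 difference was 0.50 (adjusted p = 0.0319) and that between the hairpins -0.40 (adjusted p = 0.0425). BTC was thus at or near the floor on all arrays, where small changes cannot be read.

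**Figure D2:**
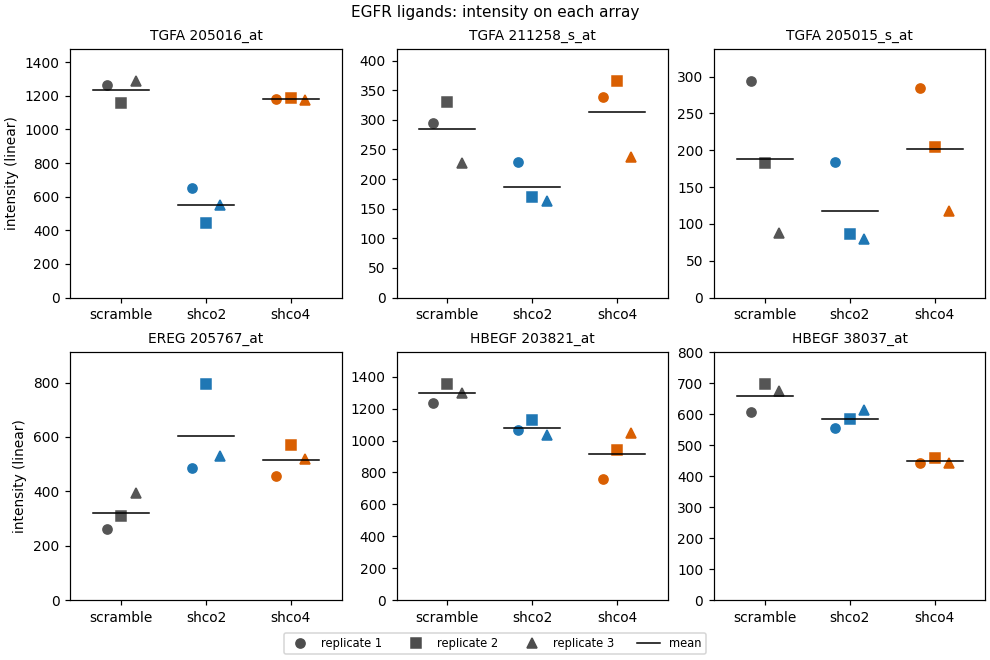
Intensity (linear, from 0) of the 6 probe sets of EGFR ligands with a mean log2 of at least 6 on each array, by line, with a bar at the mean of 3 arrays. TGFA 205016_at was lowest with shco2 (443 to 654), EREG was lowest in scramble (261 to 393), and HBEGF 38037_at was lowest with shco4 (441 to 459.6).

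NRG1 encodes neuregulin 1, a ligand of ERBB3 and ERBB4 with many isoforms, and its 6 probe sets did not move alike. The brightest, 206343_s_at, read 1035, 1241 and 1055 in scramble, 611, 757 and 632 with shco2, and 206, 469 and 390.3 with shco4. The lines were in order without overlap, with scramble highest and shco4 lowest. With shco4 NRG1 differed here by -1.72 ± 0.30, or 3.3-fold (adjusted p = 0.0103), with a call in all 18 alternatives. With shco2 the difference of -0.74 ± 0.30 did not pass with all lines in the fit (adjusted p = 0.148). It passed with only shco2 and scramble in the fit (adjusted p = 0.021) and among probe sets with a mean log2 of at least 7 (0.0404). It also passed on dropping shco4 array 1 (adjusted p = 0.0134), the dimmest array of the set. The SD on the log2 scale was 0.62 with shco4, against 0.14 in scramble and 0.17 with shco2.

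Between the hairpins (shco4 minus shco2) 206343_s_at differed by -0.98 ± 0.30 (adjusted p = 0.0477). This call ended in 11 of 18 alternatives. Adjusted p was 0.0754, 0.0727 and 0.0753 on dropping scramble arrays 1, 2 and 3, 0.0928, 0.137 and 0.102 on dropping shco2 arrays 1, 2 and 3, and 0.0711 on dropping shco4 array 3. It was also lost with a floor of 64 (0.0567), quantile normalization (0.0682), a trended and robust variance (0.0517) and only these 2 lines in the fit (0.119).

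208241_at, which the annotation ties to a different NRG1 transcript record, read 135, 120.3 and 157 in scramble, 56.9, 61.5 and 75.5 with shco2, and 79.3, 79.1 and 97.5 with shco4. Scramble was again highest, but here shco2 was lowest. NRG1 fell at this probe set with shco2 by 1.09 ± 0.15, or 2.13-fold (adjusted p = 0.00403), with a call in all 17 alternatives that kept it. With shco4 it fell by 0.69 ± 0.15, or 1.61-fold (adjusted p = 0.0239). The shco4 call ended on dropping scramble array 1 (adjusted p = 0.0661) or 3 (0.065), or shco4 array 1 (0.0748) or 2 (0.0709). The hairpins differed by 0.40 ± 0.15, which did not pass (adjusted p = 0.0942) except under the replicate block (0.00686).

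The log2 ratio of 206343_s_at to 208241_at within an array was 2.94, 3.37 and 2.75 in scramble, 3.42, 3.62 and 3.07 with shco2, and 1.38, 2.57 and 2.00 with shco4. The shco4 arrays lay below all others. The mean ratio differed by -1.04 between shco4 and scramble, by -1.39 between shco4 and shco2 and by 0.35 between shco2 and scramble. The exact two-sided permutation p was 0.1, 0.1 and 0.2 (adjusted over the 3 comparisons 0.15, 0.15 and 0.2), where 0.1 is the smallest that 3 arrays against 3 allow. This ratio was chosen after the values were seen.

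The other 4 NRG1 probe sets were dimmer and had no call. 206237_s_at read 135, 95.7 and 97.1 in scramble, 93.6, 61 and 57.8 with shco2, and 82.7, 102 and 96.4 with shco4. The shco2 arrays lay below scramble, and the difference of -0.64 ± 0.23 passed only on dropping shco2 array 1 (-0.86, adjusted p = 0.0305); the difference between the hairpins, 0.43, likewise (adjusted p = 0.0469). 208230_s_at ran from 60 to 107 with the lines overlapping. 208231_at, from 13.7 to 35.6, and 208232_x_at, from 10.8 to 43.3, each had 3 of 9 arrays at the floor. At 208232_x_at the shco4 arrays were above scramble, by 0.81 ± 0.32 (adjusted p = 0.137), opposite in sign to the brighter NRG1 probe sets. Its difference between the hairpins, 0.90, passed on dropping shco2 array 2 (1.18, adjusted p = 0.0298).

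**Figure D3:**
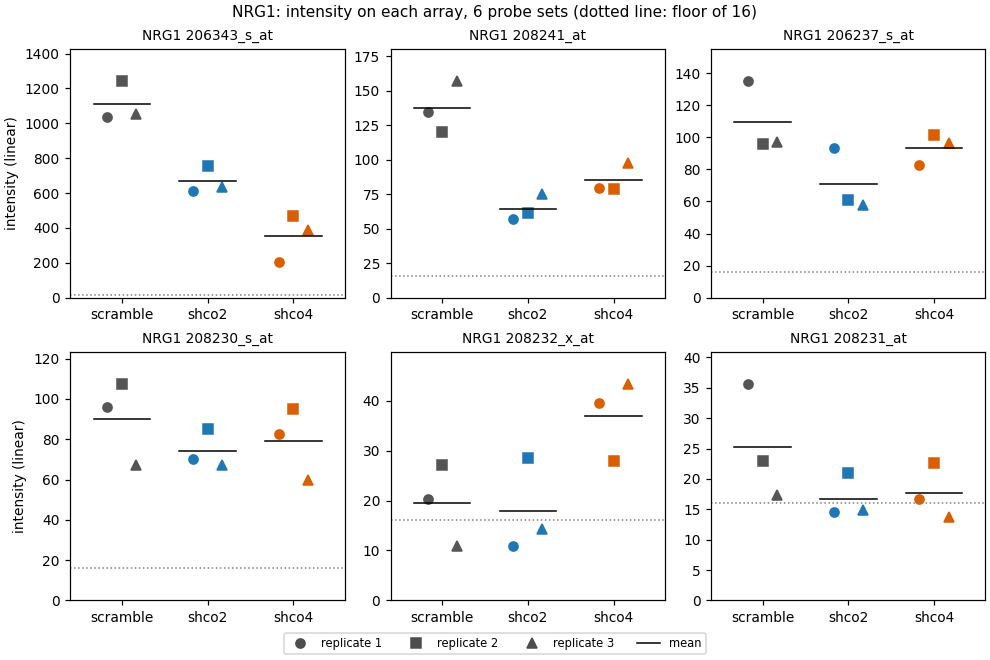
Intensity (linear, from 0) of the 6 NRG1 probe sets on each array, by line, with a bar at the mean and a dotted line at the floor of 16. The brightest probe set, 206343_s_at, was lowest with shco4 (206 to 469), and 208241_at was lowest with shco2 (56.9 to 75.5).

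Set side by side at the brightest probe sets, EGFR and its ligand TGFA were both lower with shco2, with differences of -0.92 and -1.19. With shco4 TGFA lay in the scramble range, and EGFR lay just under it at 201983_s_at (-0.28, no call) and within it at 201984_s_at. ERBB3 and its ligand NRG1 were both lower with shco4, with differences of -0.86 and -1.72. With shco2 ERBB3 overlapped with scramble, while NRG1 did not, at -0.74 without a call at 206343_s_at and -1.09 with a call at 208241_at. The probe set 208241_at was thus called lower with both hairpins, and 206343_s_at with shco4 alone in the main fit. The dimmer NRG1 probe sets had no call, and 208232_x_at was 0.81 higher with shco4 (adjusted p = 0.137). Both comparisons share the same scramble arrays, so a shift shared by the hairpins cannot be told apart from one of the scramble line. EREG was the only member with a call for a higher level against scramble with all arrays in the fit.

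Over the 24 probe sets, 5 were called with shco2 (20.8%), where 20.7% of all probe sets were. EREG alone rose, where 10.7% of all did, and 4 probe sets of EGFR, TGFA and NRG1 fell, where 9.95% did. The 3 shco2 and the 3 scramble arrays did not overlap for 9 members, against 35.8% of all probe sets. With shco4, 5 members fell and 0 rose in limma (20.8%), against 18.8% of all called, 9.75% lower and 9.05% higher. At an unadjusted p under 0.05 there were 6 lower and 2 higher, and arrays did not overlap for 8 members, against 32.6% of all. The shco4 count was 3 on dropping scramble array 1 or shco4 array 2. In those fits 2931 and 3426 of all 22215 probe sets were called, against 4178 with all arrays.

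Between the hairpins, 6 members were called (25%), 3 higher and 3 lower with shco4, against 31% of all, 14.9% higher and 16.1% lower. Arrays did not overlap for 8 members, against 40.9%. In the main fit, without the replicate number, the members were thus called about as often as probe sets at large. The same held for the 10 members with a mean log2 of at least 7: 4, 3 and 5 of them were called in the 3 comparisons (40%, 30% and 50%), against 35.5%, 31.5% and 51.2% of all probe sets that bright. Under the replicate block, 9, 6 and 10 of the 24 members were called in the 3 comparisons, against 5345, 4913 and 7581 of all 22215 probe sets. The median difference of the 24 was -0.26 with shco2 and -0.20 with shco4, where the median of all probe sets was 0 in both. For the 10 bright members it was -0.62 with shco2 and -0.15 with shco4, against 0.05 and 0.01.

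**Figure D4:**
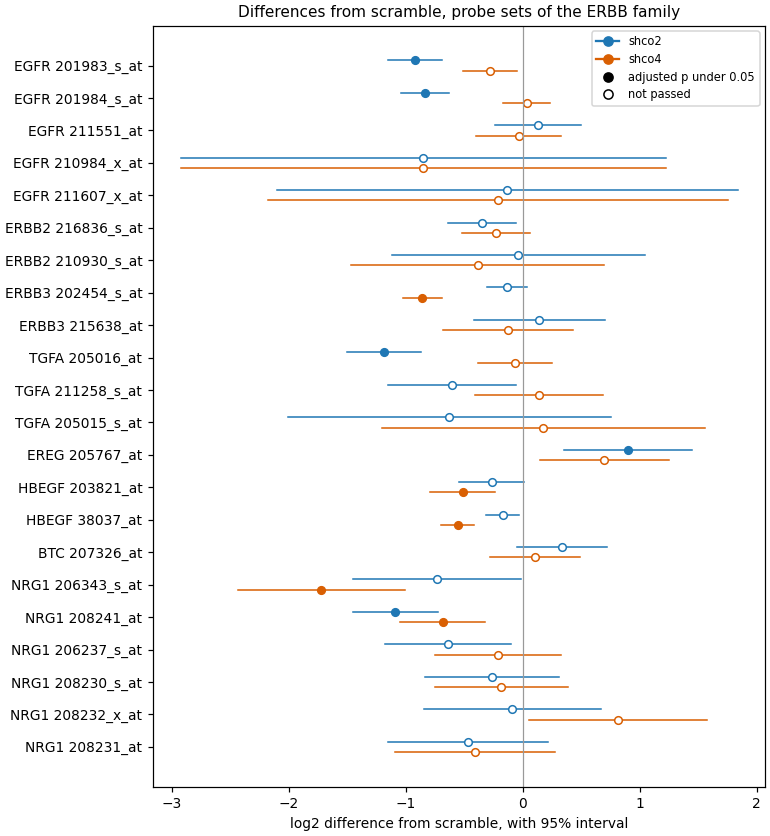
Log2 difference from scramble (x axis) with its 95% interval for the 22 member probe sets above the floor on at least 1 array, for shco2 and shco4; filled points passed at an adjusted p under 0.05. The shco2 intervals of EGFR 201983_s_at (-1.15 to -0.69), EGFR 201984_s_at and TGFA 205016_at lie left of 0, as do the shco4 intervals of ERBB3 202454_s_at (-1.03 to -0.69), HBEGF 203821_at and 38037_at, and NRG1 206343_s_at; the intervals of the dimmer EGFR and ERBB3 probe sets and of TGFA 205015_s_at cross 0.

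Around the receptors, 72 further genes were listed by role, of which 59 had a probe set with their symbol alone; the brightest one stands for each gene. Counts below stand beside 20.7% of all probe sets called with shco2 and 18.8% with shco4, or 35.5% and 31.5% of those with a mean log2 of at least 7. They describe the lists, and no test compared one list with another or with all genes. In the release step, 5 of 9 sheddases and their partners fell with shco2 and 1 rose, with a median of -1.03 against 0 over all probe sets. Of all probe sets 9.95% were called lower, and of the bright ones 35.5% were called in either direction. ADAM10, a protease that releases EGF and betacellulin, fell from 3172 to 3657 in scramble to 1461 to 1799.8 (-1.07 ± 0.10, adjusted p = 0.000999). ADAM17, the main protease for TGFA, AREG and HBEGF, rose from 732 to 823 to 1103 to 1380.5 (0.60 ± 0.10, adjusted p = 0.00778). So the lines were apart for both proteases, in opposite directions.

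RHBDF2 encodes an inactive rhomboid protein needed for ADAM17 to mature, and it fell with shco2 by 1.06 ± 0.16 (adjusted p = 0.00525). TIMP3, an inhibitor of ADAM17 and of matrix proteases, fell by 1.51 ± 0.12 (adjusted p = 0.000634). With shco4, TIMP3 was the 1 gene of the 9 with a call, at -0.49 ± 0.12 (adjusted p = 0.0331), and that call ended on dropping scramble array 2 (0.0812), shco2 array 2 (0.0502) or 3 (0.0598), or shco4 array 1 (0.0754), 2 (0.082) or 3 (0.0883). A count of 2 was reached on dropping scramble array 1. Between the hairpins ADAM10, RHBDF2 and TIMP3 were higher with shco4, by 1.31, 1.35 and 1.02, and ADAM17 differed by -0.46, all with a call. The other 2 called with shco2 were ADAM8 and ADAM12 (-1.03 and -1.57), named after their values were seen. The ADAM12 call ended on dropping scramble array 1 (0.0736) or 3 (0.0662), or shco2 array 1 (0.0705), 2 (0.0704) or 3 (0.0532). ADAM12 was dim, at 42.3 to 60.7 in scramble and 12.7 to 19.7 with shco2, so its size depends on the floor, and with a floor of 64 it showed no difference (adjusted p = 1).

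Of 12 receptor inhibitors and turnover genes, 5 fell and 0 rose with shco2 in limma (5 lower and 1 higher at an unadjusted p under 0.05), with a median of -0.45, and the other 7 did not pass. The count called is near the 35.5% of bright probe sets called in either direction. Of all probe sets, 9.95% were called lower. SPRY1 and SPRY2, the Sprouty inhibitors that receptor signalling itself induces, fell by 1.54 ± 0.27 (adjusted p = 0.009) and 0.56 ± 0.07 (adjusted p = 0.00227). The other 3, named after their values were seen, were LRIG1, which promotes the breakdown of ERBB receptors, the ubiquitin ligase CBLB and the phosphatase PTPN1 (-0.94, -0.80 and -1.18). The CBLB call ended on dropping scramble array 1 or 3 or any shco2 array (adjusted p up to 0.0598), and that of PTPN1 on dropping scramble array 1 or 2, any shco2 array or shco4 array 2 (up to 0.0996). The count was 3 on dropping scramble array 1, shco2 array 2 or shco2 array 3.

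With shco4, 2 of these 12 fell and 2 rose, with a median of 0.05, near the 31.5% of bright probe sets called. EPS15 and HGS, which sort internalized receptors, fell by 1.27 ± 0.12 (adjusted p = 0.00117) and 0.60 ± 0.07 (adjusted p = 0.00266). The shco4 arrays read 449 to 471 for EPS15, against 957 to 1294 in scramble. SPRY2, at 0.26 ± 0.07 (adjusted p = 0.0389), and SOCS5, at 0.32 (adjusted p = 0.0403), were called higher. The SPRY2 call ended on dropping scramble array 1 (0.114), 2 (0.0531) or 3 (0.107), shco2 array 2 (0.0561) or 3 (0.0653), or shco4 array 2 (0.0815) or 3 (0.0833), and with median centring (0.0615). The SOCS5 call ended on dropping any scramble array, any shco2 array or shco4 array 2 (0.0595 to 0.114), with a floor of 1 (0.0978) and with median centring (0.0556). The count of 4 became 2 on dropping scramble array 1 or 2, shco2 array 2 or 3, or shco4 array 2.

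Of 13 adaptors and kinases, 4 rose and 1 fell with shco2, and 3 rose and 2 fell with shco4 (medians 0.25 and 0.02), near the 35.5% and 31.5% of bright probe sets called. PTPN11, a phosphatase that carries receptor signals to RAS, rose with shco2 by 0.60 ± 0.11 (adjusted p = 0.0123). STAT3 rose with shco4 by 0.57 ± 0.10 (adjusted p = 0.0104). PIK3CB, a catalytic subunit of PI3K, differed by -0.51 with shco2 and 0.58 with shco4 (adjusted p = 0.0282 and 0.0202). Its shco2 call ended on dropping scramble array 1 (0.086), 2 (0.0688) or 3 (0.0759), or shco2 array 1 (0.0869) or 3 (0.0903), and its shco4 call on dropping scramble array 1 (0.0527), 2 (0.0679) or 3 (0.0587).

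PIK3R1, the regulatory subunit of PI3K, differed by 0.25 and 0.31 (adjusted p = 0.024 and 0.0129). Its shco2 call ended on dropping scramble array 1 (0.0694) or 3 (0.0577), or shco2 array 2 (0.0513) or 3 (0.051). That call was also lost under the replicate block (0.0505) and with only shco2 and scramble in the fit (0.0559). It ended too with a floor of 1 (0.117) and without probe sets at the floor on all arrays (0.0656). The shco4 call of PIK3R1 ended with a floor of 1 (0.0705). The count of 5 with shco2 fell to 1 on dropping scramble array 3 or shco2 array 3, to 2 on dropping scramble array 1 or 2 or shco2 array 1 or 2, and to 3 on dropping shco4 array 1. The shco4 count of 5 fell to 3 on dropping scramble array 1 and to 2 on dropping scramble array 2 or 3.

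Of 11 ERK cascade genes listed, 6 had a probe set. With shco4, 2 of these 6 fell and 1 rose, where 31.5% of bright probe sets were called. With shco2, 0 were called in limma (2 higher and 1 lower at an unadjusted p under 0.05). The shco2 count was 1 on dropping scramble array 2 or 3 or shco2 array 1. Among probe sets with a mean log2 of at least 7, limma called HRAS (0.47, adjusted p = 0.033), MAP2K2 (0.36, 0.0325) and ARAF (-0.29, 0.0473) with shco2. MAP2K1, which encodes the kinase MEK1, fell with shco4 by 0.77 ± 0.09 (adjusted p = 0.00238), from 2600.0 to 3075 in scramble to 1534 to 1791. ARAF, a RAF kinase, fell by 0.75 ± 0.09 (adjusted p = 0.00264). From shco2 to shco4 they differed by -0.95 and -0.46, both with a call. MAPK3, which encodes ERK1, differed by 0.55 ± 0.14 (adjusted p = 0.0356), and 7 of the 9 arrays ended that call: scramble arrays 1 (0.0793) and 3 (0.059), shco2 arrays 1 (0.0588), 2 (0.0628) and 3 (0.0633), and shco4 arrays 1 (0.0908) and 2 (0.0924).

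Of 16 transcripts known to be induced by ERK, 6 fell and 0 rose with shco2 in limma (8 lower and 0 higher at an unadjusted p under 0.05). With shco4, 5 fell and 1 rose (medians -0.32 with shco2 and -0.38 with shco4). The counts called were again near the 35.5% and 31.5% of bright probe sets called in either direction. Of all probe sets, 9.95% were called lower with shco2 and 9.75% with shco4. PHLDA1, a transcript that ERK signalling raises, was lower in both hairpin lines, with differences of -0.47 ± 0.07 and -0.46 ± 0.07 (adjusted p = 0.00622 and 0.00764). SRF, a transcription factor, was lower too, with differences of -0.82 ± 0.12 and -0.78 ± 0.12 (adjusted p = 0.00533 and 0.00732). DUSP4, a phosphatase of ERK, fell with shco2 by 0.98 ± 0.09 (adjusted p = 0.00096) and differed by -0.20 with shco4 (adjusted p = 0.185).

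FOSL1, a subunit of AP-1, fell with shco4 by 1.39 ± 0.19 (adjusted p = 0.00468), from 4348 to 4643 in scramble to 1367 to 2234, and differed by -0.12 with shco2 (adjusted p = 0.801). The shco2 count was 3 on dropping scramble array 3 or shco2 array 1 or 2. With 1 array left out, the shco4 count ran from 4 to 8. The 1 transcript called higher with shco4 was JUNB (0.90, adjusted p = 0.0339), named after its values were seen. Its call ended on dropping scramble array 1 (0.0952), 2 (0.0651) or 3 (0.0965), shco2 array 2 (0.0511) or 3 (0.0536), or shco4 array 1 (0.0966) or 2 (0.094). Of the 3 receptors and ligands outside the members with a probe set, ERBB4, EGF and NRG2, none was called by limma with either hairpin (0 at an unadjusted p under 0.05). ERBB4 lay between 10.2 and 24.9, near the floor, and passed with shco2 only on dropping scramble array 1 (adjusted p = 0.0408). These lists were chosen with earlier results of these data known, and their counts describe them only.

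**Figure D5:**
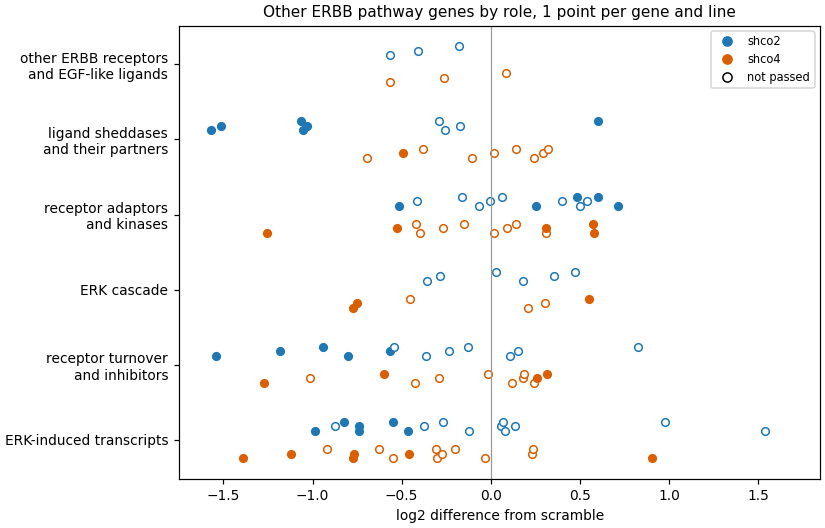
Log2 difference from scramble (x axis) of 59 other ERBB pathway genes by role, 1 point per gene and hairpin line; filled points passed at an adjusted p under 0.05. With shco2, 5 of 9 sheddases and their partners and 5 of 12 inhibitors lie left of 0 as filled points.

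The genes whose pattern over the 9 arrays was most like a member's were found among probe sets with 1 symbol, a mean log2 of at least 7 and an SD above 0.3. For EGFR they were PDHB, CNOT1 and PAPSS2 (Pearson r 0.985, 0.980 and 0.972), and for TGFA CRYZL1, FAM120A and SERTAD2 (0.988, 0.985 and 0.984). For ERBB3 they were GMPR, ZNHIT1 and EPCAM (0.992, 0.991 and 0.990), and for ERBB2 MMP14, EFNB2 and CST6 (0.971, 0.947 and 0.947). For EREG they were SAT1, ZNF226 and STK38L (0.956, 0.947 and 0.947), and for NRG1 SLC29A1, NCAPH and MGLL (0.985, 0.981 and 0.980). HBEGF was closest to the mitotic genes CDCA8 and KIF11 and to NRG1 (0.968, 0.964 and 0.962). For BTC, at the floor, they were KIFAP3, SIK1 and MBD3 (0.887, 0.886 and 0.840). These are the highest of about 5220 values per member over 9 arrays of 3 lines, so they mainly order genes by how the lines differ, and they are given without a test.

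Median intensity per array lay between 122 and 129.6. The ACTB ratio of signal at the 3′ end over that at the 5′ end, which climbs as RNA breaks down, was 1.07 to 1.10 in scramble, 1.08 to 1.11 with shco2 and 1.12 to 1.14 with shco4. The same ratio for GAPDH did not set shco4 apart, at 0.868 to 0.958 in scramble, 0.878 to 0.939 with shco2 and 0.882 to 0.904 with shco4. The ACTB ratio's part in the shco4 differences was not tested. Markers fit the labelled line in part: VIM (9517 to 13135), CD44, ZEB1, CAV1 and FN1 were bright on all arrays, PGR was under the floor on all 9, and ESR1 read at most 54.1. EPCAM (219.9 to 610) and GATA3 (437 to 683) were above background. CDH1 read 27.97 to 57.2 with shco2, 71.5 to 117 in scramble and 182 to 243 with shco4. Of 6 markers of blood, endothelial and fibroblast cells with a probe set, VWF was under the floor on all arrays, PTPRC, CD3E, PECAM1 and PDGFRA reached at most 30.02, 49.2, 69.4 and 23.8, and LUM rose to 128 to 296 with shco4 against 18.2 to 25 in scramble. The part of these in the member results was not tested.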

How the data were processed

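Per the labels' protocols, biotin-cRNA made from 200 ng of RNA of each of 9 samples was run on an Affymetrix array of its own. The deposited table holds linear intensity values of 22277 probe sets. On the values, the authors had scaled each array to a mean near 499.9 without the lowest and highest 2%. The sources used here name no software or summary method. The 62 control probe sets were left out, intensities below 16 were raised to that floor, and differences were taken on the log2 scale. Symbols came from the platform annotation (19064 probe sets with 1, 1043 with several, 2108 with none); 0 probe sets with several symbols held a member's.

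One model with a mean per line was fitted to 22215 probe sets with limma 3.58.1 in R 4.3.3 (lmFit, eBayes, two-sided, Benjamini-Hochberg over all). The prior degrees of freedom were 0.53, with 2611 probe sets at the floor on all arrays. The fit was tested on simulated data. Members, gene lists, motifs and rules were chosen with earlier results of these data known. Named were all member probe sets, up to 4 genes per list with the smallest p, and 3 genes most like each member.

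Deviations of same-numbered arrays correlated at 0.133 to 0.236 between scramble and shco4, all above 0.1. The main fit nonetheless used no pairs, and the replicate number entered only in the replicate block, an alternative fit. Adjusted p is from a fit without that number unless the block is named. Alternatives were floors of 64 and 1, quantile normalization, median centring, a mean log2 of at least 7, leaving out probe sets at the floor on all arrays, a trended robust variance, the replicate block, only the 2 lines compared, and each array left out. The number of arrays limits the precision.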

Additional observations from a re-analysis of the deposited data

Results flagged for a closer look

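The 2 hairpin lines, which target the same gene and are set against the same scramble arrays, differed from each other at 6 member probe sets by limma's contrast between them (adjusted p under 0.05). That was 25% of the 24 members, where 31% of all probe sets were called, so such a difference was not particular to this family. EGFR was higher with shco4 than with shco2 by 0.64 at 201983_s_at (adjusted p = 0.00317) and by 0.87 at 201984_s_at (adjusted p = 0.000568). TGFA 205016_at was higher with shco4 by 1.12 (adjusted p = 0.00119). The others were lower with shco4: ERBB3 202454_s_at differed by -0.72 (adjusted p = 0.000568) and HBEGF 38037_at by -0.38 (adjusted p = 0.00344). NRG1 206343_s_at differed by -0.98 (adjusted p = 0.0477, from 0.00802 to 0.137 over its alternatives). In each case the 3 arrays of the lines did not overlap, which was so for 40.9% of all probe sets. Lines of 3 arrays are too small for a check for outlying arrays.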

How the results depend on the processing

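Over 1248 values of member probe sets under the alternatives, 1186 kept their side of the threshold (a change of sign of an uncalled value counted as kept), 28 lost a call, 34 gained one, and 0 called values changed sign. With 1 array left out, the count of member probe sets called ran from 4 to 7 for shco2 against scramble (5 with all arrays), from 3 to 6 for shco4 against scramble (5) and from 5 to 7 between the hairpins (6). Over all 22215 probe sets, these fits called 3258 to 4602 with shco2 (4589 with all arrays) and 2760 to 3938 with shco4 (4178). Between the hairpins they called 5715 to 6691 (6881). The lowest shco4 total, 2760, was that without scramble replicate 2. With the replicate block the member counts were 9 (1 higher, 8 lower), 6 and 10 (7 higher, 3 lower). Of all 22215 probe sets the block called 5345, 4913 and 7581, against 4589, 4178 and 6881 in the main fit. With shco4 against scramble the block changed no member call other than that of ERBB2 216836_s_at. Only between scramble and shco4 did all correlations of same-numbered arrays exceed 0.1. They ran from 0.0567 to 0.289 for shco2 against scramble and from 0.0576 to 0.214 between the hairpins. The best match of an array bore its own number in 18 of 18 cases, so the cutoff does not show that the shco2 arrays were unpaired. Under the block the shco4 counts against scramble were 3 higher and 1 lower for adaptors and kinases, 2 and 3 for inhibitors and turnover genes, and 1 and 6 for ERK-induced transcripts. The pathway counts under the alternatives were chosen after seeing the data.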
